A study of Pinus pinaster with 24 samples.

Results

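The root cap and the root meristem of maritime pine (Pinus pinaster) were compared in 12 of the 24 libraries of the series. These were all 6 cap libraries and all 6 meristem libraries, chosen by their labelled area. Each area had 3 libraries from seedlings given 3 mM potassium nitrate and 3 from seedlings given 3 mM potassium chloride (KCl). Within a solution, libraries with the same experiment number were matched across areas, which gave 6 root-tip sets with a cap and a meristem library each. All seedlings were 1 month old, came from the Segura-Alcaraz provenance, were kept for 3 days without a nitrogen source, and were sampled 2 h after receiving 80 mL of their solution. Areas were cut by laser from frozen sections of 30 µm by their position, and the submitters state that the cut areas match the anatomical zones only approximately. The sources used here do not say how many seedlings entered a library, nor whether the experiments were separate cultures. The p-values below therefore measure the spread between these libraries, which may be technical.

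The root cap is the sheath of cells over the root tip that protects the meristem, senses gravity, secretes mucilage and sheds its outer cells into the soil. The root meristem behind it holds the dividing cells that renew the cap in one direction and build the root body in the other. In gymnosperm roots, the cap and the cortex trace to a common group of initials and the stele to a separate one. The sources used here pair 0 of the 51211 transcript IDs with a gene name, so the area labels could not be checked against marker genes and no gene family could be counted. The results are therefore given by transcript class, with 6 transcripts named.

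Values are the authors' scaled read counts per transcript, which they named CPM. The 12 libraries held 45262154 to 50934180 reads, and 3 reads, taken as the detection limit, were worth 0.0513 to 0.074 CPM, a limit that covers counting error only. Column totals were larger in the cap (986809 to 1173829 CPM) than in the meristem (786966 to 919848 CPM). Shares of CPM below are shares of each library's own total. Fewer cells of a type and less RNA per cell cannot be told apart in such libraries.

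Most of the tested transcripts differed between cap and meristem. Of 48473 transcripts tested (at least 1 CPM in at least 3 of the 12 libraries), 18807 were higher and 19706 lower in the cap at an adjusted p below 0.05, which is 79.5% of those tested. The test was limma on log2(CPM + 0.5), in a model blocked by root-tip set, with Benjamini-Hochberg adjustment. With edgeR's quasi-likelihood test on the recovered reads, 77.9% were called. Both tools called 18434 transcripts higher and 19284 lower, and 0 were called in opposite directions. The median absolute difference over all tested transcripts was 1.07 on the log2(CPM + 0.5) scale, with a median standard error of 0.179.

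A stricter test asked which transcripts differed by more than 2-fold (limma's treat against a log2 difference of 1). It called 8928 higher and 8600 lower in the cap, 36.2% of those tested, and the same threshold in edgeR called 47.2%. The near balance of directions depends on the scaling. With reads divided by the library total only, 7092 were higher and 10758 lower beyond 2-fold, since that scaling moved the median of all transcripts to -0.33 on the log2 scale, against -0.06 with the deposited scaling. From 1 CPM upward, the share called grew with expression level. Beyond 2-fold it was 29.2% of 14832 transcripts with a mean of 1 to 3 CPM, and 59.7% of 1662 transcripts at 100 CPM or more. The constant added to CPM before taking logs shrinks differences more at low levels. A strong rise in either area also lifts the mean by which transcripts were grouped. The trend is therefore partly built in, and how far was not tested.

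**Figure D1:**
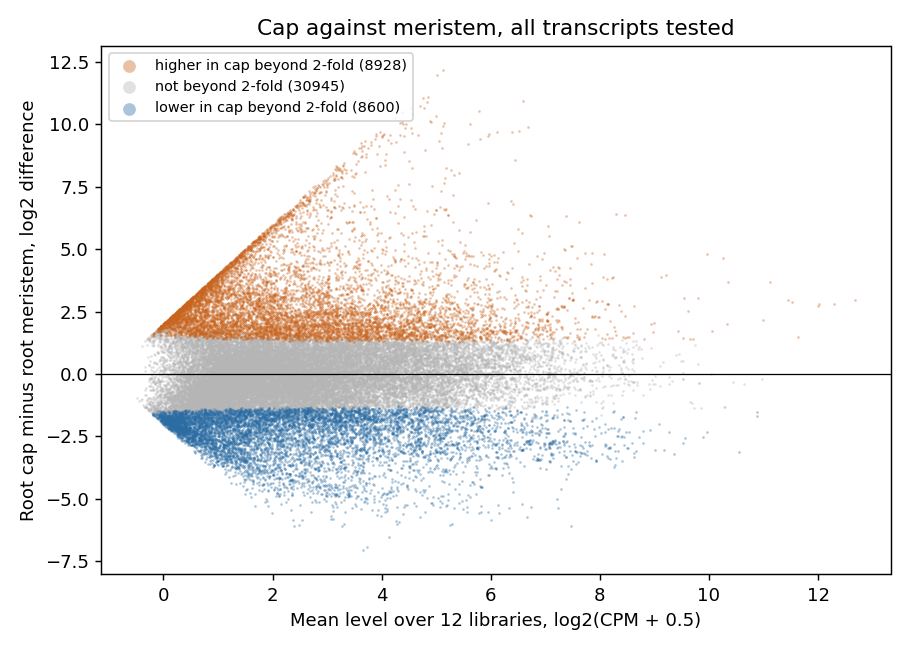
Difference between root cap and root meristem (log2 scale, y axis) against the mean level over the 12 libraries (log2(CPM + 0.5), x axis), 1 point per tested transcript. Orange points are the 8928 transcripts higher in the cap beyond 2-fold, blue points the 8600 lower ones and grey points the other 30945. The orange cloud reaches 12.17, whereas the blue cloud ends at -7.05.

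The 8928 transcripts that were higher in the cap held 52.2% ± 4.51 of the CPM in cap libraries and 8.38% ± 2.48 in meristem libraries (SD, n = 6 each). Their median level was 12.8 CPM in the cap and 1.12 CPM in the meristem. The 8600 lower ones held 5.6% ± 1.77 of the CPM in the cap and 42.5% ± 5.49 in the meristem (SD, n = 6 each), with medians of 1.42 and 9.78 CPM. These shares describe transcripts that the same libraries selected.

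The matched sets moved alike. Of the tested transcripts, 17628 were higher and 17997 lower in the cap in all 6 sets, together 73.5%. In each of the 6 sets, 7663 were at least 2-fold higher and 7810 at least 2-fold lower. Of the 48473 tested, every cap library lay above every meristem library for 13366 transcripts, and below every one for 13957. This criterion differs from the adjusted p by which 79.5% were called. Counted set by set, 12319 to 14933 transcripts were at least 2-fold higher with nitrate and 10419 to 14023 with KCl. Across transcripts, which are not independent replicates and share the libraries' normalization, the difference vectors of the 15 possible pairs of sets correlated at 0.895 to 0.944.

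Strong differences ran mostly one way. Of the called transcripts, those with a difference of 16-fold or more numbered 1394 on the higher side of the cap and 510 on the lower side, 3.93% of those tested. In all 6 sets separately, 706 transcripts were at least 16-fold higher and 47 at least 16-fold lower. The counts differed between settings. With a pseudocount of 0.1 in place of 0.5 they were 2913 and 1440, edgeR gave 3722 and 2610 (13.1% of those tested), and library-total scaling gave 1227 and 715. More were higher than lower under each other setting tried.

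A minority of the transcripts higher in the cap were near 0 in the meristem, but a larger share than in the opposite direction. The 1394 strongly higher transcripts had a median of 40.9 CPM in the cap and 0.137 CPM in the meristem. The 510 strongly lower ones had a median of 1.61 CPM in the cap and 44.8 CPM in the meristem. Selection at 16-fold or more partly builds in both low medians. The asymmetry was also seen among transcripts with matched levels in their stronger area. Among those beyond 2-fold that averaged 30 to 100 CPM in their stronger area, 187 of 1697 cap-higher transcripts (11%) were below 0.1 CPM in the meristem, whereas 1 of 1397 meristem-higher transcripts (0.0716%) was below 0.1 CPM in the cap. Between 10 and 30 CPM the shares were 14.8% and 0.534%. They were 27.4% and 5.22% between 3 and 10 CPM, and 7.53% and 0% at 100 CPM or more.

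At the limit, 384 transcripts averaged at least 1 CPM in the cap and had no read in any of the 6 meristem libraries. Of these, 63 averaged at least 10 CPM in the cap. In the opposite direction, 44 transcripts averaged at least 1 CPM in the meristem and had no read in any of the 6 cap libraries, and 0 of them reached 10 CPM. With any 1 set left out, the counts were 419 to 456 and 49 to 68. A rise is partly built in, since fewer libraries then had to be without a read.

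The strongly lower transcripts kept a low level in cap libraries, and this level varied between them. The 510 strongly lower transcripts together made up 0.0413% of the CPM in the cap library of KCl replicate 3 and 0.372% in that of KCl replicate 2, with the other 4 cap libraries at 0.0783% to 0.214%. In meristem libraries the same transcripts made up 3.69% to 6.27%. They were also abundant in both remaining areas, with 3.21% ± 0.247 of the CPM in cortex libraries and 4.69% ± 0.705 in vascular libraries (SD, n = 6 each). The 1394 strongly higher transcripts made up 14.6% to 22.8% of the CPM in cap libraries and 0.127% to 0.629% in meristem libraries. The cut areas adjoin, and the part of RNA from the neighbouring area in these low values was not tested.

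The transcripts with the largest differences are named. The 2 highest in the cap were pp_114011 and pp_235229. In cap libraries, pp_114011 had 3918, 2756 and 1506 CPM with nitrate (replicates 1, 2 and 3) and 2052, 1868 and 2842 CPM with KCl. In meristem libraries it had no read in 5 of 6, and 0.0807 CPM (4 reads) in KCl replicate 2. The groups were far apart, with 661902 reads in all cap libraries together against 4 in all meristem libraries. The difference was 12.17 ± 0.194 (SE) on the log2(CPM + 0.5) scale with an adjusted p of 7.947e-09 by limma. The size rests on the pseudocount, and edgeR fitted 18.16 (adjusted p = 2.221e-05).

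The transcript pp_235229 followed the same order of libraries in the cap. Whether it shares reads or a gene with pp_114011 was not tested. It had 3384, 2323 and 1288 CPM with nitrate and 1819, 1570 and 2588 CPM with KCl, against no read in 5 of 6 meristem libraries and 0.0557 CPM (3 reads) in KCl replicate 1. Its difference was 11.98 ± 0.194 (SE, adjusted p = 7.947e-09 by limma). By mean level they ranked 22 and 27 among all transcripts of the cap and 50070 and 50277 among those of the meristem. Both were near 0 outside the cap, at 0.246 ± 0.381 and 0.272 ± 0.283 CPM in the developing cortex and at 0.00302 ± 0.0074 and 0 CPM in the developing vascular tissue (SD, n = 6 each).

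The 2 lowest in the cap, pp_127831 and pp_127830, have adjacent IDs and nearly equal values, and how reads were assigned between similar transcripts is not stated, so their separate values are uncertain. In cap libraries, pp_127831 had 0.285, 0.0387 and 0.648 CPM with nitrate and 0.839, 3.56 and 0.142 CPM with KCl. In meristem libraries it had 149, 216 and 150.1 CPM with nitrate and 60.9, 220 and 140.4 CPM with KCl. Every meristem library was above every cap library. The difference was -7.05 ± 0.315 (SE) on the log2 scale (adjusted p = 4.844e-07 by limma, and 5.168e-05 with edgeR). For pp_127830 the cap libraries ran from 0.0387 to 2.92 CPM with a median of 0.729 CPM, and the meristem libraries from 62.6 to 232 CPM with a median of 149 CPM. Its difference was -6.94 ± 0.314 (SE, adjusted p = 5.155e-07 by limma).

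Both were also abundant outside the meristem. In the developing vascular tissue pp_127831 had 289 ± 87.9 CPM and in the developing cortex 168 ± 55.3 CPM, compared with 156 ± 58.4 CPM in the meristem and 0.919 ± 1.33 CPM in the cap (SD, n = 6 each). The cap was the single area where it was low.

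The other end of the scale is given by transcripts that hardly differed. Among the 7091 transcripts with at least 10 CPM in each of the 12 libraries, pp_180844 and pp_83436 had the smallest differences. The transcript pp_180844 had 58.6 ± 10.9 CPM in the cap and 58.0 ± 5.13 CPM in the meristem (SD, n = 6 each), and the 95% interval of its log2 difference ran from -0.26 to 0.26. The transcript pp_83436 had 21.3 ± 2.93 CPM in the cap and 21.2 ± 1.32 CPM in the meristem, with an interval from -0.28 to 0.28. Libraries of both areas overlapped. Such intervals lay wholly within a 2-fold difference for 14359 of the tested transcripts (29.6%). Equality depends on the scaling, since dividing by the library total alone put both transcripts at -0.32 on the log2 scale.

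**Figure D2:**
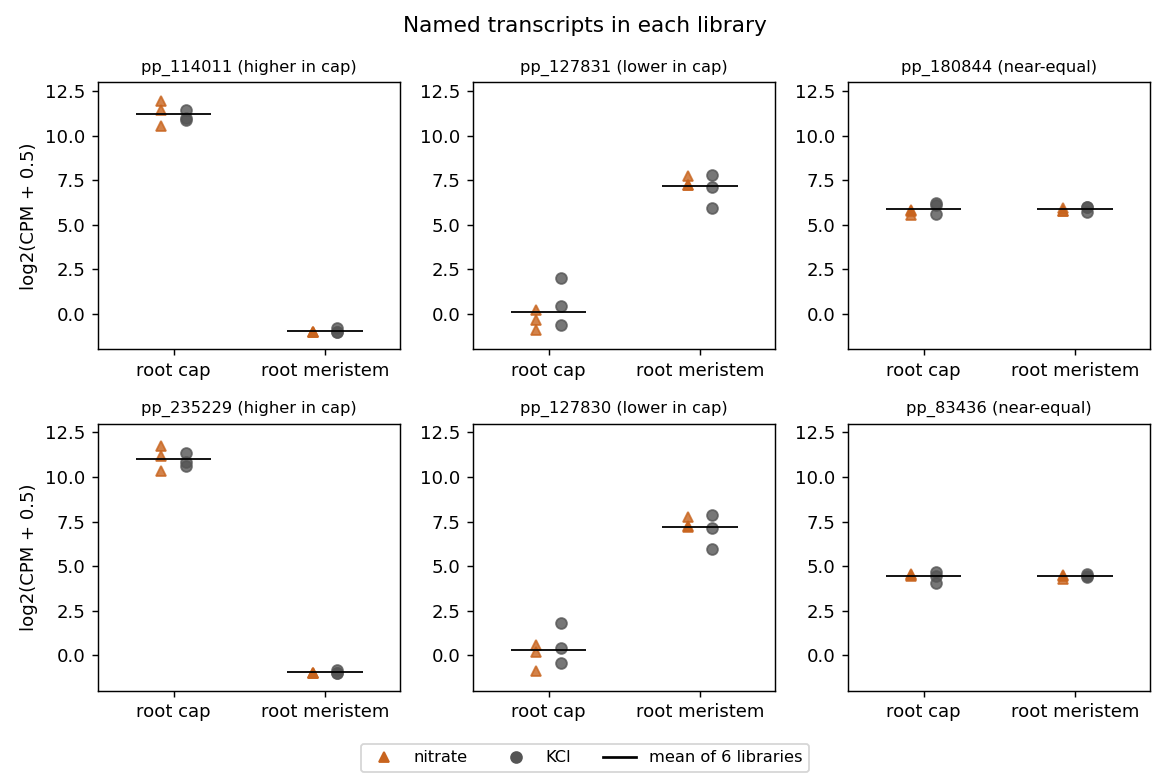
Level of the 6 named transcripts in each cap and meristem library (log2(CPM + 0.5), y axis), with nitrate libraries as triangles, KCl libraries as circles and the mean of 6 libraries as a line. The cap and meristem points of pp_114011 and pp_235229 are about 12 units apart and those of pp_127831 and pp_127830 about 7, whereas those of pp_180844 and pp_83436 overlap.

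Adjacent IDs moved together, so the counts are not counts of independent genes. Of the tested transcripts, 41518 (85.7%) had a tested neighbour with the next higher or lower number. The log2 differences of such neighbours correlated at 0.79 over 32185 pairs, compared with 0.269 for consecutive tested IDs with a gap in the numbering. Where both neighbours differed beyond 2-fold, 9211 of 9584 pairs had the same direction. Taking each unbroken run of such neighbours as 1 unit, the 8928 higher transcripts formed 4279 runs and the 8600 lower ones 4038 runs, with 23 and 22 transcripts in the longest.

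Cap RNA was concentrated in fewer transcripts. The 10 most abundant transcripts of a library held 9.04%, 8.05% and 9.33% of the CPM in nitrate cap libraries and 8.97%, 8.31% and 8.89% in KCl cap libraries. In the meristem they held 3.51%, 3.51% and 2.75% with nitrate and 3.19%, 3.65% and 2.9% with KCl. The share was larger in the cap in 6 of 6 sets, by 5.51 ± 0.788 percentage points (SD, n = 6, two-sided exact sign-flip permutation p = 0.03125, the smallest that 6 sets allow, adjusted p = 0.04688 over 6 whole-library measures). The effective number of transcripts, the exponential of the Shannon entropy of the CPM shares, was 7053 ± 634 in the cap and 10419.9 ± 1239.9 in the meristem (SD, n = 6 each). It was lower in the cap in 6 of 6 sets (exact permutation p = 0.03125, adjusted p = 0.04688). In the cap, 1264 ± 146 transcripts held 50% of the CPM, against 1799 ± 319.8 in the meristem, again with the smallest p.

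**Figure D3:**
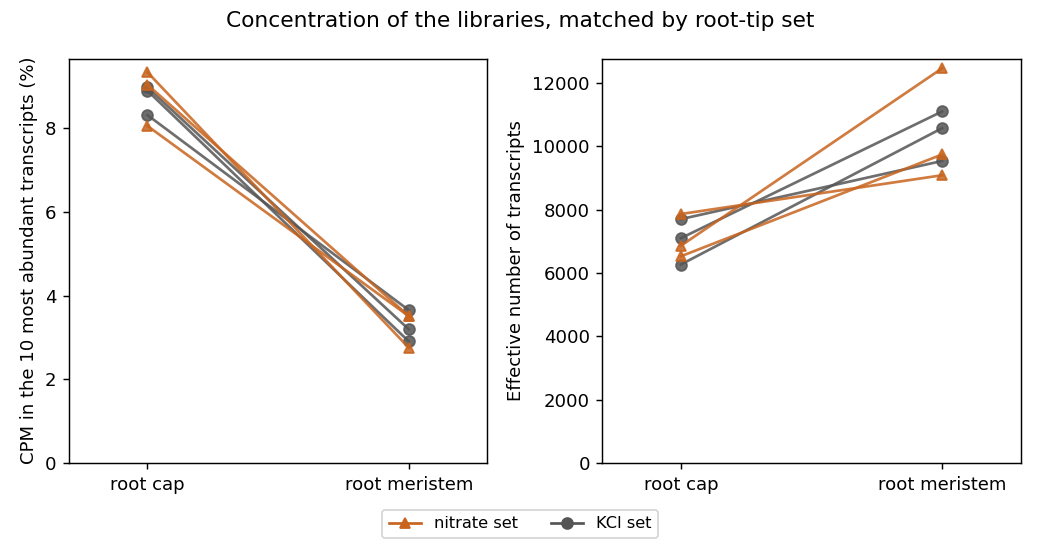
Share of CPM in the 10 most abundant transcripts of each library (left, percent) and effective number of transcripts (right), with lines joining the cap and the meristem library of a root-tip set. All 6 lines fall to the right in the left panel, and all 6 rise to the right in the right panel.

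The share of transcripts without a read overlapped between the areas. It was 3.56% ± 0.839 in the cap and 4.22% ± 0.273 in the meristem (SD, n = 6 each, exact permutation p = 0.09375), and the cap library of KCl replicate 3 had the highest value, 5.16%. Cap libraries of a solution also varied more. The median standard deviation per transcript was 0.305 with nitrate and 0.371 with KCl on the log2 scale in the cap, against 0.244 and 0.25 in the meristem (n = 3 libraries each, not tested).

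The most abundant transcripts of the areas overlapped only in part. Of the 10 highest by mean level in each area 2 were shared, and of the 100 highest 19 were. The 10 leading cap transcripts were all higher in the cap beyond 2-fold. The background called in either direction is 36.2% of all tested, and 59.7% of those averaging 100 CPM or more. The median level of these 10 was 8124 CPM in the cap and 1443 CPM in the meristem. All 10 were also among the 1000 highest of the meristem, whereas 43 of the 100 leading cap transcripts were. Of the 10 leading meristem transcripts, 7 were lower in the cap beyond 2-fold, with a median of 816 CPM in the cap and 2309 CPM in the meristem over the 10. As a sum, these 10 held 3.45% ± 0.301 of the CPM in cap libraries and 3.03% ± 0.334 in meristem libraries (SD, n = 6 each), and the 2 transcripts on both lists were among those higher in the cap beyond 2-fold. Among the 100 highest, 86 of the cap list were higher and 70 of the meristem list lower in the cap. These lists were ranked on the same libraries, so high shares are partly built in.

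Largely the same transcripts differed between cap and meristem with both solutions. Within nitrate, 17148 transcripts were higher and 16607 lower in the cap (69.6% of those tested), and within KCl 16263 were higher and 17383 lower (69.4%), all by limma. The balance of directions depends on the scaling here too, since library-total scaling gave 13692 higher and 19469 lower with nitrate and 12605 higher and 20543 lower with KCl. Called in both and in the same direction were 30440 transcripts, 90.2% of the nitrate calls and 90.5% of the KCl calls. Across transcripts, the differences with nitrate and with KCl correlated at 0.973. The median absolute change of the difference between solutions was 0.234 on the log2 scale, with a median standard error of 0.358.

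A direct test of whether nitrate changed the cap-meristem difference called 0 transcripts by limma, with 2104 (4.34%) at an unadjusted p below 0.05 and a smallest adjusted p of 0.743. By edgeR 0 were called, with 1569 at an unadjusted p below 0.05, and by DESeq2 32. When all 24 libraries shared the estimate of the spread, limma called 37, of which 31 had a larger cap-minus-meristem value with nitrate and 6 a smaller one. DESeq2 and the fit on 24 libraries shared 12 calls. With 3 sets per solution, changes the size of that standard error were not detectable, and larger ones may have been missed. The fitted change was at least 2-fold for 2129 transcripts (4.39%), of which limma on the 12 libraries called 0. There were 7 transcripts called in opposite directions in the 2 solutions, 4 higher in the cap with nitrate and lower with KCl and 3 the other way round. All 7 had an unadjusted p below 0.05 for the change, and the smallest adjusted p among them was 0.743.

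**Figure D4:**
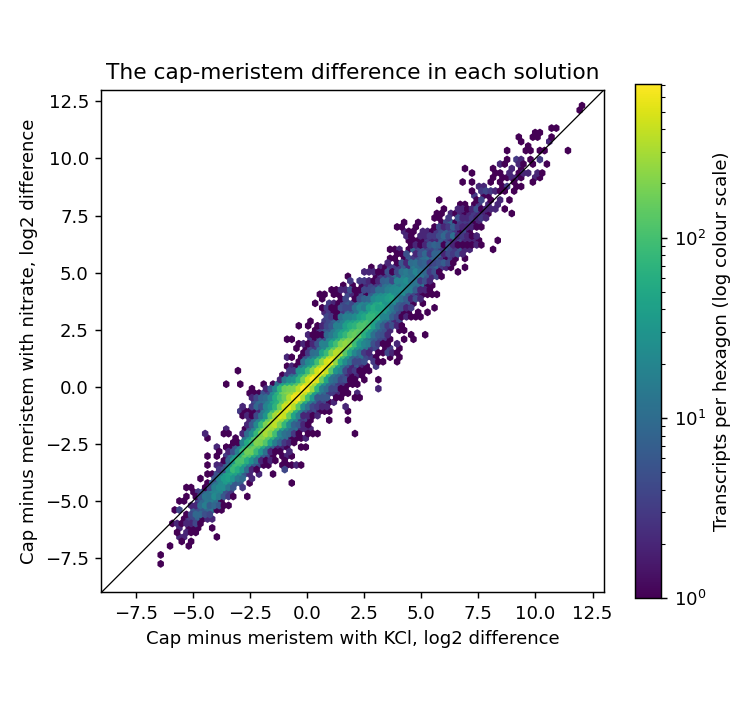
Cap-minus-meristem difference with nitrate (y axis) against that with KCl (x axis) on the log2 scale, with colour giving the number of transcripts per hexagon on a log scale. Transcripts lie along the diagonal of equal differences, with a correlation of 0.973.

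The cap was far from each of the other areas, including the meristem it adjoins. Within a set, the median absolute log2 difference between cap and meristem averaged 1.1 ± 0.145 (SD, n = 6 sets). It was 0.917 ± 0.14 between cap and developing cortex, 1.13 ± 0.0963 between cap and developing vascular tissue, and 0.343 ± 0.056 to 0.393 ± 0.0549 for the 3 pairs without the cap. The cap-meristem distance exceeded the cap-cortex distance by 0.183 ± 0.0909 in 6 of 6 sets, and the meristem-cortex distance by 0.707 ± 0.138 in 6 of 6 sets (exact sign-flip permutation p = 0.03125 and adjusted p = 0.03906 for each). It was larger than the cap-vascular distance in 1 of 6 sets, with a mean difference of -0.0318 ± 0.16 (exact permutation p = 0.5312). With the root mean square in place of the median absolute difference, that value was -0.183 (exact permutation p = 0.0625) and the excess over the cap-cortex distance was 0.291. Pairs of areas share libraries, so these distances are not independent of each other. No distance between libraries of the same area was set beside them, and cap libraries varied more than meristem libraries. How much the spread between libraries adds to each distance was not tested. The transcripts were filtered on cap and meristem libraries alone, which left out 2738. Transcripts confined to the cortex or the vascular tissue could thus not enter, whereas those confined to the cap could. The effect of this filter on the distances was not tested.

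**Figure D5:**
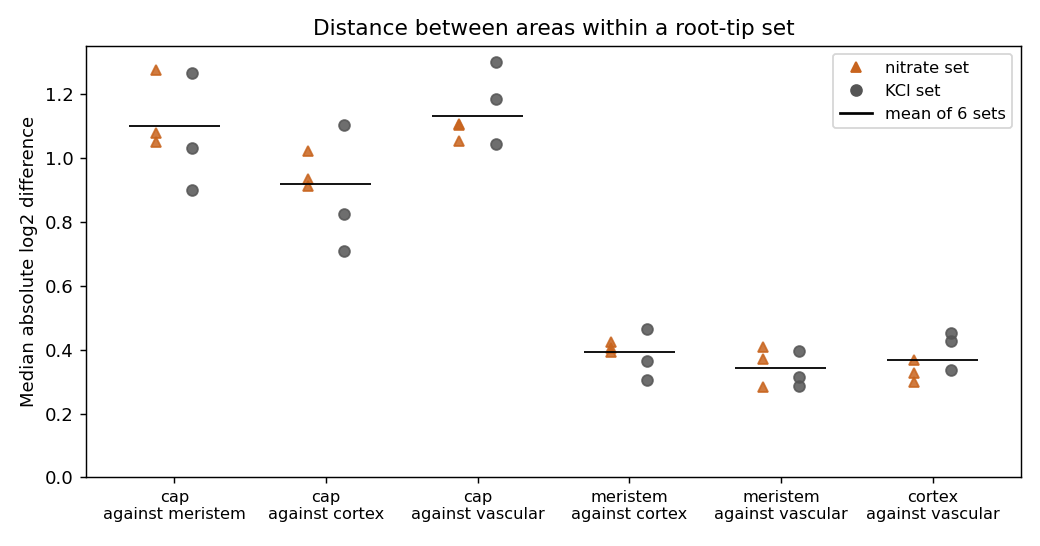
Median absolute log2 difference over the tested transcripts between each pair of areas (y axis), with 1 point per root-tip set, nitrate sets as triangles, KCl sets as circles and a line at the mean of 6 sets. The 3 pairs with the cap lie between 0.708 and 1.3, and the 3 pairs without it between 0.283 and 0.466.

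The remaining areas mostly resembled the meristem for the transcripts that parted it from the cap. Of the 8928 cap-higher transcripts, 7014 (78.6%) had mean levels nearer the meristem in both remaining areas, and of the 8600 cap-lower ones 7953 (92.5%). For some transcripts the cortex lay nearer the cap. Among cap-higher transcripts, 1314 (14.7%) were nearer the cap in the cortex alone, compared with 334 (3.74%) in the vascular tissue alone. The cap-higher transcripts held 13% ± 1.02 of the CPM in cortex libraries and 6.35% ± 1.63 in vascular libraries (SD, n = 6 each), more in the cortex in 6 of 6 sets (exact permutation p = 0.03125). The cap-lower ones held 34.3% ± 1.47 of the CPM in cortex libraries and 46.1% ± 5.45 in vascular libraries, less in the cortex in 6 of 6 sets (p = 0.03125 by the same exact permutation test, adjusted p = 0.03125 for both). The cortex and vascular libraries had no part in selecting these transcripts, and the measure was chosen after related values had been seen.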

How the data were processed

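Libraries were made by SMART-Seq v4 from small amounts of RNA (integrity number above 7) and read in pairs of 150 bp, per the labels' protocols. The submitters' processing notes name bcl2fastq and BWA. The sources used here do not state the read counter, reference or scaling. The authors deposited a signal per transcript named CPM, whose column totals are unequal, unlike those of plain CPM. Within 0.02 reads, 100% of the values in each column came out as whole reads, and these were recovered for the count tests. The deposited scaling was within 0.984 to 1.028 times that of TMM on these reads.

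All 51211 transcripts were read, and 2738 below the filter were left out. Every deposited transcript had at least 1 CPM in at least 2 of the 24 libraries. Transcripts below that level are thus not in the shares of transcripts given here. The design assumed unscaled CPM, and its log-scale tests also suit this signal. Tests used limma 3.58.1 with a variance trend in R 4.3.3 on the 12 libraries, with root-tip set as a fixed block and the area effect fitted within each solution, and edgeR 4.0.16 and DESeq2 1.42.0 as alternatives. The pairing was checked: deviations from group means correlated between areas at 0.271 to 0.526 for the 6 pairs with the same number and solution, and at -0.387 to -0.03 for the 12 other pairs. Deviations within a group sum to 0, so the negative values are largely built in and add no separate evidence for the pairing. The labels give the numbers but do not say what is shared. Reads per transcript of replicate libraries differed far beyond sampling noise (chi-square of 38.4 to 163.7 per transcript), so none was treated as 1 library deposited again. This does not tell separate cultures from repeat preparations of the same RNA. The procedure was also run on simulated counts drawn from meristem levels, with far fewer and smaller changes than were called here. That run cannot show how the scaling or the calls behave when most transcripts differ. Named transcripts are the 2 highest and 2 lowest called by both tools with the same direction in 6 of 6 sets, and the 2 nearest to equal at 10 CPM or more. The comparison and its lists were chosen with earlier results of these data known.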

Additional observations from a re-analysis of the deposited data

Results flagged for a closer look

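Single libraries far from the other 5 of their area were looked for in 30 sets of 6 values (12 for whole-library measures, 12 for named transcripts and 6 for distances between areas), and 6 were found. Chance would mark about 5% of groups of normally distributed values, a rate that does not apply to the named transcripts below, whose low values are skewed or mostly 0. Both whole-library values belong to the cap library of KCl replicate 3, which had the most transcripts without a read (5.16%) and the most below 1 CPM (25.0%). The meristem library of KCl replicate 2 held all 4 meristem reads of pp_114011 (0.0807 CPM), and that of KCl replicate 1 all 3 of pp_235229 (0.0557 CPM), so that any read would have stood apart there. The cap library of KCl replicate 2 had the highest values of pp_127831 (3.56 CPM) and pp_127830 (2.92 CPM), which have adjacent IDs, and also the largest share of CPM in strongly meristem-higher transcripts (0.372%). Groups pooled over both solutions were used for this, since groups of 3 libraries are too small.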

How the results depend on the processing

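The settings covered the pseudocount, the filter on low values, the scaling, the tool, the libraries in the fit, the distance measure and each root-tip set left out. A set was left out whole, because the block gives a lone library no weight. Library-total scaling and the counts at 16-fold were added after the data had been seen.

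Counts for cap against meristem stayed within 1.5 times in every setting: 35312 to 40711 called, 14549 to 22856 beyond 2-fold, 31067 to 36994 with KCl and 31080 to 36647 with nitrate, and with a set left out 36020 to 37276, 15855 to 17399, 28154 to 34103 and 29282 to 34241. With no replicate block, 36999 were called and 16457 beyond 2-fold, and the block changed no call of a named transcript. Counts at 16-fold moved by more than 1.5 times: 4353 in all (2913 higher, 1440 lower) with a pseudocount of 0.1, 311 lower with a pseudocount of 1, 6332 (3722 and 2610) by edgeR and 6454 (3836 and 2618) by DESeq2. A larger pseudocount lowers the largest fold that a transcript of a given level can reach. How far this accounts for the changes was not tested. With a set left out, the counts at 16-fold ran from 1673 to 2090 in all. The higher ones then numbered 1318 to 1484 and the lower ones 355 to 610, the 355 being without KCl replicate 3. The area-by-solution count of 0 became 37 (31 higher, 6 lower) with all 24 libraries and 32 (14 higher, 18 lower) by DESeq2. It stayed at 0 with each set left out, but 4526 transcripts had an unadjusted p below 0.05 without KCl replicate 3, against 2104.

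With 5 sets the smallest exact p is 0.0625, so no whole-library test could pass. The differences then ran from 5.3 to 5.71 percentage points for the 10 leading transcripts and from -3795 to -2919 for the effective number. The cap-meristem distance minus the others ran from 0.155 to 0.204 (cap-cortex), 0.668 to 0.735 (meristem-cortex), 0.718 to 0.807 (meristem-vascular) and 0.683 to 0.783 (cortex-vascular). Against cap-vascular it ran from -0.0826 to 0.0184, turning sign without KCl replicate 1, and was -0.183 with the root mean square difference. The named higher and lower transcripts were called in every setting.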
